A study of Homo sapiens with 12 samples.

Results

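The 10 VEGF, angiopoietin and semaphorin genes followed here are 10 of 62262 rows of the deposited gene table, and were measured across all 12 RNA-seq libraries of a human podocyte line exposed to calcineurin inhibitors. They are defined by symbol and not by a threshold on measured values, though the set was drawn up with earlier results of these data known, and encode signals that pass between podocytes and the vessel wall. Of these, 5 are ligands of the vascular endothelial growth factor (VEGF) and angiopoietin systems (VEGFA, VEGFB, VEGFC, ANGPT1 and ANGPT2), 1 is the secreted lipase inhibitor ANGPTL4, 1 is the secreted semaphorin SEMA3A, and 3 are receptors (FLT1, NRP1 and NRP2). All 10 passed the filter on low counts, a minimum of about 10 counts in at least 3 libraries, and were tested.

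The cells were 1 conditionally immortalized podocyte line, which carries a temperature-sensitive SV40 T gene. Cells of all 4 groups were differentiated for 7 to 10 days at the temperature that inactivates T and then exposed for 24 h. The DMSO group received the solvent, and the others received an inhibitor at 100 nM, which was cyclosporine A (CSA) or its analog voclosporin (VCS) or, as a different class, tacrolimus (TAC), with 3 libraries per group. All 3 compounds inhibit calcineurin, whose phosphatase activity lets NFAT factors enter the nucleus. VCS carries an altered side chain at a single residue of the cyclosporine ring, and TAC is a macrolide. The labels number the libraries of each group 1 to 3 without saying what the numbers mean or whether the replicates were separate cultures, so p-values measure the spread between these libraries, which may be technical. Libraries are called by group and number below (DMSO 1).

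In the glomerulus, podocytes are a main source of VEGF-A, which acts on receptors of the capillary endothelium, while neuropilins serve as co-receptors for both VEGF and class 3 semaphorins. FLT1 binds VEGF-A and, in its soluble form, withholds it from other receptors. ANGPT1 and ANGPT2 act in opposite ways on the endothelial receptor TEK. ANGPTL4 is known as a target of hypoxia-inducible factors (HIF) and of PPAR factors, and VEGFA as a HIF target.

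A pair of promoters are shown because the library-to-library pattern of ANGPTL4 is the most marked among these genes, with VEGFC, the steadiest ligand, beside it. Each run holds bases -250 to -11 from the RefSeq start on the strand of the gene. The ANGPTL4 run is chr19:8363905-8364144 on the plus strand and lies inside the GENCODE 29 gene, upstream of the first exon of its main transcript. The VEGFC run is chr4:176792933-176793172 on the minus strand and lies outside the GENCODE 29 gene. Both are from RefSeq on GRCh38.p14, and capitals mark a match to ACGTG, the core of the HIF response element, on the opposite strand.
ANGPTL4: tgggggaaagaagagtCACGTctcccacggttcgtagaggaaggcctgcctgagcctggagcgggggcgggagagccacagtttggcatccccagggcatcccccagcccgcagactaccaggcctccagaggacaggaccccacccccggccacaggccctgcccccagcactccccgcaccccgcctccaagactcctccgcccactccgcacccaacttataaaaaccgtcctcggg
VEGFC: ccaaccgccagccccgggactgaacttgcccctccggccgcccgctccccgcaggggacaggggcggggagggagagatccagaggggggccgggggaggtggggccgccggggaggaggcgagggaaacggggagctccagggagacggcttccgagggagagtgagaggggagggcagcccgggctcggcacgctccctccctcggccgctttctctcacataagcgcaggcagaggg
The 300-base RefSeq windows (250 before to 50 after the start) of 5 of the 10 genes were matched: VEGFB, VEGFC, ANGPTL4, FLT1 and NRP2. ACGTG, searched on both strands, was in 1 of these 5 (ANGPTL4) and in 21.4% of all 35116 windows. GGAAA, the core of the NFAT site, was in 4 of 5 and in 61.2% of all. GGGCGG, a GC box, was in 5 of 5 and in 45% of all; CACGTG, which contains ACGTG, was in 0 of 5 and in 7.26%, and AGGTCA, bound by nuclear receptors, in 0 of 5 and in 13.8%. These matches describe the letters only.

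Levels are CPM, counts scaled to library size, and ± is the SD over 3 libraries. Library totals ran from 28808213 to 36077072 counts. NPHS1, which encodes nephrin of the slit diaphragm, had 1 to 11 counts per library, and 7 of 10 podocyte markers were abundant enough to test; SYNPO, for the actin-associated protein synaptopodin, was at 46.3 ± 5.38 CPM in DMSO (n = 3). Mitochondrial transcripts took 9.68 to 13.4% of the counts in the libraries numbered 3 and 5.82 to 8.12% in the others. As the RNA is from bulk cultures, fewer cells of a type and less RNA per cell cannot be told apart.

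Per kilobase of merged exon, the level over the 12 libraries was highest for VEGFC at 27.3 ± 1.98 CPM per kb, followed by NRP1 at 17.2 ± 1.72, VEGFA at 14.3 ± 1.82, VEGFB at 10.7 ± 1.38, NRP2 at 10.4 ± 1.56, ANGPTL4 at 6.06 ± 2.14 and SEMA3A at 2.02 ± 0.344 (SD, n = 12). ANGPT2, ANGPT1 and FLT1 came last at 0.104, 0.0630 and 0.0363 CPM per kb. The libraries did not overlap between VEGFC and NRP1, between ANGPTL4 and SEMA3A, or between SEMA3A and ANGPT2; all other neighbours in this order overlapped. The order of the leading genes rests on the length used. Per kilobase of coding sequence VEGFA came first at 164 CPM per kb, with NRP1 at 54.6 and VEGFC at 52.5. The merged exons of VEGFA, over 32 annotated transcripts, cover 14431 of the 16304 bp of the gene, and 1255 bp are coding. Merged exons can be longer than any single transcript, so the level of VEGFA per kilobase of merged exon may be understated.

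**Figure D1:**
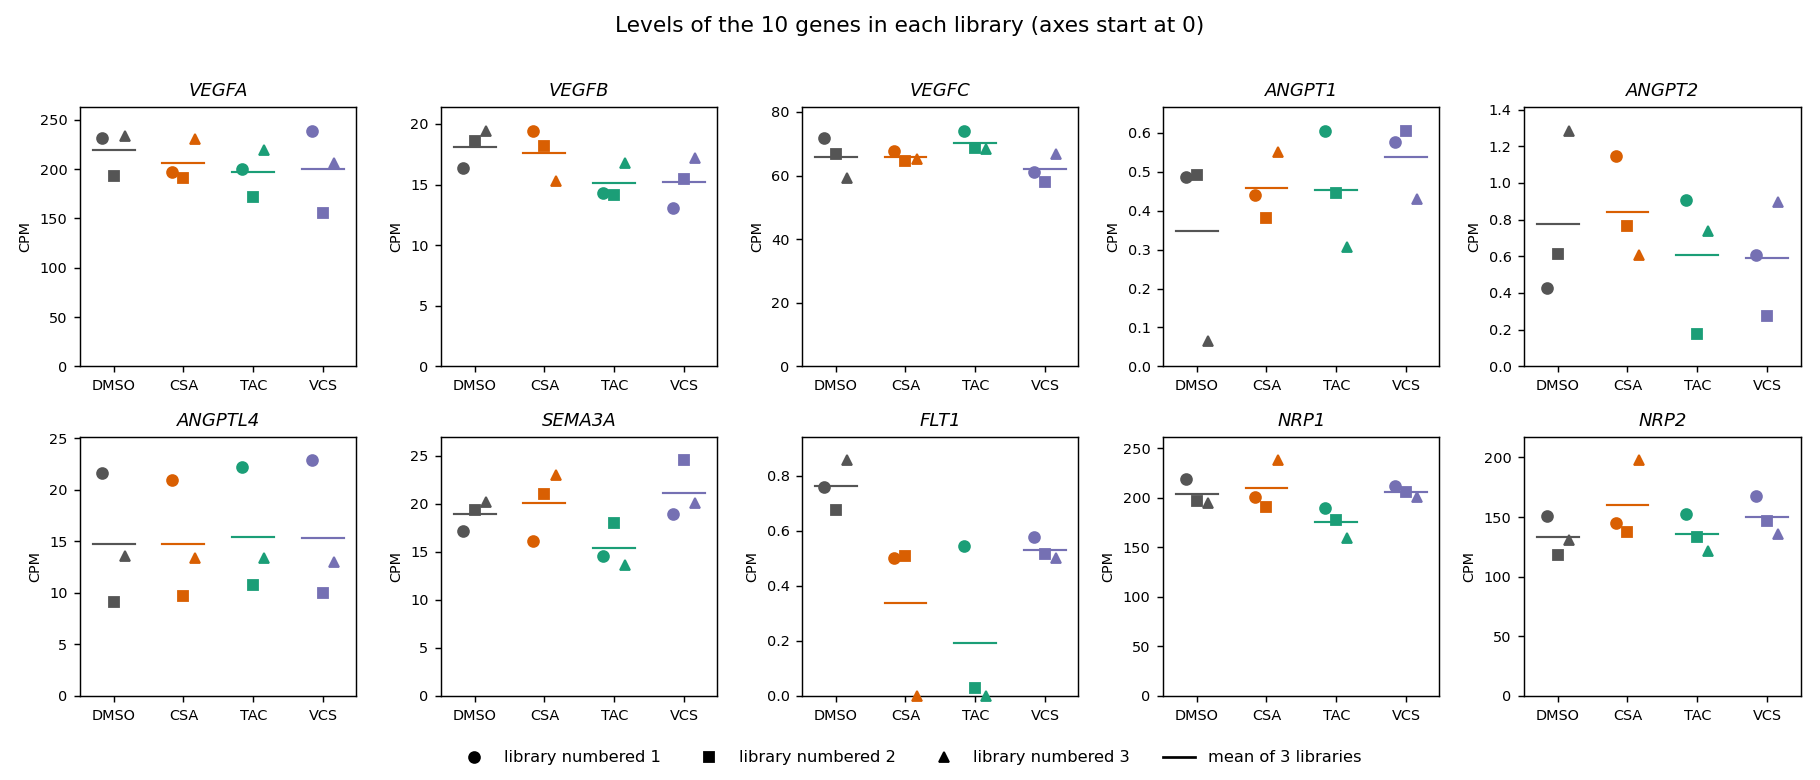
CPM of each of the 10 genes (vertical axes, each starting at 0) in the DMSO, CSA, TAC and VCS groups; circles, squares and triangles are the libraries numbered 1, 2 and 3, and lines are means of 3 libraries. ANGPTL4 separates by library number in every group, FLT1 is at 0 in CSA 3 and TAC 3, and the groups overlap for most other genes.

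VEGFA (ENSG00000112715, chromosome 6, 43770184 to 43786487) encodes the main podocyte ligand of the endothelium. It was at 232, 193 and 234 CPM in DMSO 1 to 3, at 197, 191 and 231 in CSA, at 201, 171 and 219 in TAC and at 239, 156 and 206 in VCS. The 4 groups overlapped, and the library numbered 2 was the lowest in each. The log2 fold change of CSA against DMSO was -0.09 (95% interval -0.42 to 0.24), that of TAC -0.15 (-0.48 to 0.17) and that of VCS -0.13 (-0.46 to 0.20), with edgeR adjusted p of 0.952, 0.920 and 0.963. The gene has 32 annotated transcripts, and gene-level counts do not separate its splice forms.

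VEGFB (ENSG00000173511, chromosome 11, 64234538 to 64238793) encodes a ligand of FLT1 and NRP1. It was at 16.3, 18.6 and 19.5 CPM in DMSO, 19.4, 18.2 and 15.3 in CSA, 14.3, 14.1 and 16.8 in TAC, and 13.1, 15.5 and 17.2 in VCS. Means were lower in TAC (15.1 ± 1.49) and VCS (15.2 ± 2.08) than in DMSO (18.1 ± 1.62), but each overlapped DMSO by 1 or more libraries. On the log2 scale CSA differed from DMSO by -0.04, TAC by -0.26 and VCS by -0.25 (SE 0.13 each), and none passed (edgeR adjusted p = 0.978, 0.920 and 0.963).

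VEGFC (ENSG00000150630, chromosome 4, 176683538 to 176792727), known as a lymphatic growth factor that acts through FLT4, varied least. Its highest library was 1.28 times its lowest. It was at 71.7, 66.8 and 59.3 CPM in DMSO, 67.6, 64.6 and 65.1 in CSA, 74.1, 68.7 and 68.3 in TAC, and 61.0, 57.9 and 66.8 in VCS. All TAC libraries lay above all CSA and all VCS libraries, and every inhibitor group overlapped DMSO. On the log2 scale the 95% interval against DMSO of CSA was -0.20 to 0.19, that of TAC -0.10 to 0.29 and that of VCS -0.29 to 0.11.

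The angiopoietin genes, both on chromosome 8, were near the detection limit. ANGPT1 (ENSG00000154188), the TEK agonist, had 16, 16 and 2 counts in DMSO, 15, 12 and 19 in CSA, 20, 15 and 10 in TAC, and 18, 20 and 12 in VCS. DMSO 3 stood below all others. Summed over each group it had 34, 46, 45 and 50 counts, with 95% Poisson intervals of 23.6 to 47.5, 33.7 to 61.4, 32.8 to 60.2 and 37.1 to 65.9, which overlap and cover counting error only. ANGPT2 (ENSG00000091879), the context-dependent antagonist, had 14, 20 and 39 counts in DMSO, 39, 24 and 21 in CSA, 30, 6 and 24 in TAC, and 19, 9 and 25 in VCS. TAC 2 and VCS 2 had its fewest counts, and the groups overlapped. Its exons overlap MCPH1 on the other strand, and the use of strand in counting is not stated. At this depth no difference from DMSO was detectable for either gene, with SE of 0.52 to 0.58 on the log2 scale.

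NRP1 (ENSG00000099250, chromosome 10, 33177492 to 33336262) encodes the co-receptor for VEGF-A and SEMA3A. It was at 219, 196 and 194 CPM in DMSO, 200.2, 191 and 238 in CSA, 189, 177 and 159.6 in TAC, and 212, 206 and 200.2 in VCS. All 3 TAC libraries lay below every library of the other groups, though narrowly, with TAC 1 at 189.5 CPM and CSA 2 at 190.7. The share of all tested genes that separate in this way is not given here. The log2 fold change against DMSO was -0.21 in TAC (95% interval -0.44 to 0.01; edgeR adjusted p = 0.920), 0.04 in CSA (-0.18 to 0.27) and 0.02 in VCS (-0.21 to 0.24).

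NRP2 (ENSG00000118257, chromosome 2, 205681990 to 205798133), the neuropilin that pairs with VEGF-C and SEMA3F, was at 151, 118 and 131 CPM in DMSO. It was at 145, 138 and 198 in CSA, 152, 133 and 121 in TAC, and 168, 147 and 136 in VCS. CSA 3 was the highest library, and all groups overlapped. CSA differed from DMSO by 0.27 on the log2 scale (SE 0.15, edgeR adjusted p = 0.939), TAC by 0.03 and VCS by 0.17. Without CSA 3 the CSA value was 0.088.

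SEMA3A (ENSG00000075213, chromosome 7, 83955777 to 84492724) encodes a secreted guidance cue that competes with VEGF-A at NRP1. It was at 17.2, 19.4 and 20.2 CPM in DMSO, 16.1, 21.1 and 23.0 in CSA, 14.6, 18.0 and 13.7 in TAC, and 18.9, 24.5 and 20.0 in VCS. TAC 3 and TAC 1 were the lowest of the 12. CSA differed from DMSO by 0.08 on the log2 scale (95% interval -0.24 to 0.41), TAC by -0.30 (-0.62 to 0.03) and VCS by 0.16 (-0.16 to 0.49). It had the smallest p of the 10 genes in the test of any difference among the 4 groups (edgeR adjusted p = 0.991).

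Across the comparisons with DMSO, 0 of the 10 genes passed an adjusted p under 0.05 by edgeR's quasi-likelihood test. The share of all 19784 tested genes that passed was 0.0101% for CSA, 0.0354% for TAC, 0.00505% for VCS and 0.0101% for the mean of the 3 inhibitors, and 0.0505% in the test of any difference. An unadjusted p under 0.05 was reached by 0 of 10 in each of these comparisons, where 3.75, 4.65, 3.27 and 3.66% of all genes reached it, and by 1 of 10 (SEMA3A) in the test of any difference, against 3.90% of all genes. DESeq2 also called 0 of 10 in every comparison. The median of the 10 log2 fold changes was 0.02 for CSA, -0.18 for TAC and -0.04 for VCS, against -0.0043, -0.0044 and 0.0041 over all tested genes. Libraries did not overlap with DMSO for 1 of 10 genes in CSA (FLT1; 9.87% of all genes), 2 in TAC (FLT1 and NRP1; 12.4%) and 1 in VCS (FLT1; 7.48%), so these counts are near the background.

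**Figure D2:**
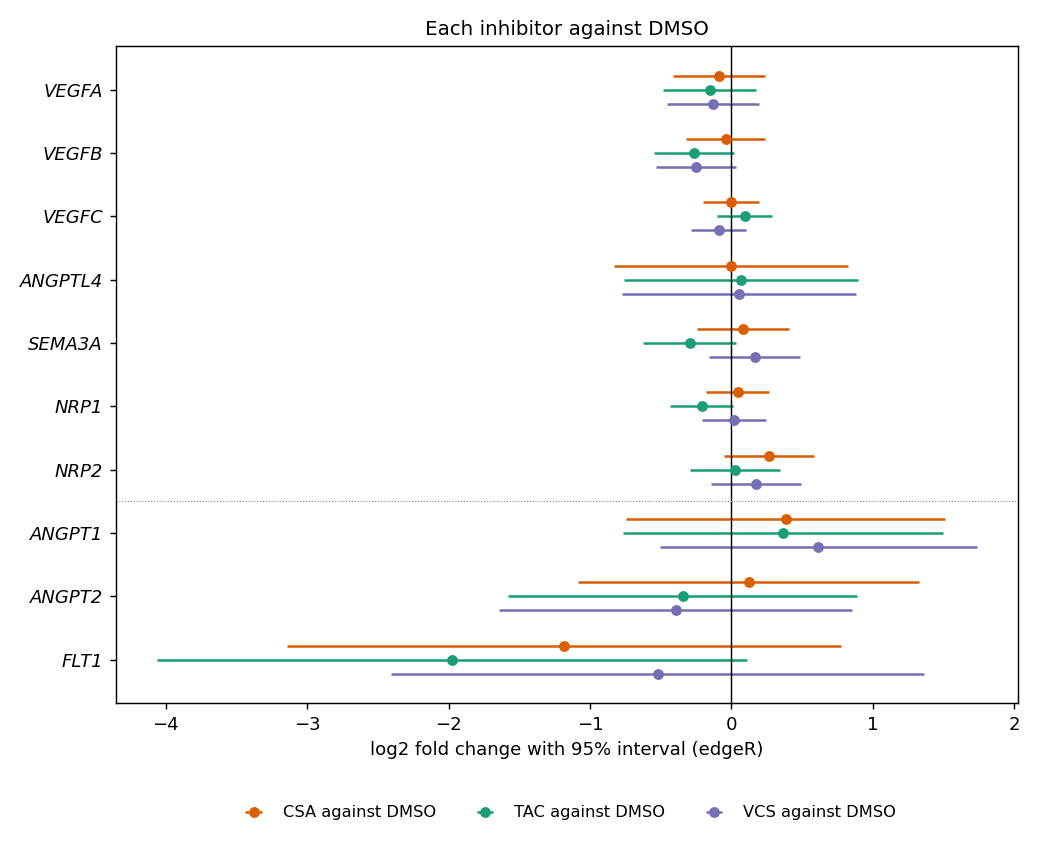
Log2 fold change against DMSO (horizontal axis) of the 10 genes (vertical axis) for CSA, TAC and VCS. The 95% intervals are approximations derived from the edgeR test. The dotted line sets apart the 3 genes with few counts. With group as the only term every interval includes 0, and those of ANGPT1, ANGPT2 and FLT1 are the widest beside that of ANGPTL4.

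With the inhibitors compared at the same dose and time, SEMA3A and NRP1 had an unadjusted p under 0.05 between TAC and each cyclosporine (2 of 10 genes; 7.52% of all genes for CSA against TAC and 3.63% for VCS against TAC). SEMA3A was above TAC by 0.46 in VCS on the log2 scale (95% interval 0.13 to 0.79; edgeR adjusted p = 1.00), with no overlap of the libraries. It was above TAC by 0.38 in CSA (0.05 to 0.71; edgeR adjusted p = 0.609), where CSA 1 lay below TAC 2. NRP1, its co-receptor, was above TAC by 0.26 in CSA (0.03 to 0.48; edgeR adjusted p = 0.615) and by 0.23 in VCS (0.01 to 0.45; edgeR adjusted p = 1.00), in both cases without overlap. VEGFC lay the other way, below TAC by -0.10 in CSA (-0.29 to 0.10) and by -0.18 in VCS (-0.38 to 0.01), again without overlap.

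None of these differences passed after adjustment over all genes, of which 0.0303% passed for CSA against TAC and 0.0253% for VCS against TAC. Libraries did not overlap for 2 of 10 genes in CSA against TAC (VEGFC and NRP1; 13.6% of all genes) and for 3 of 10 in VCS against TAC (VEGFC, NRP1 and SEMA3A; 8.77%). These contrasts share the TAC libraries. Whether TAC differed from CSA more than from DMSO was not tested.

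The analogs CSA and VCS were compared directly for all 10 genes. No gene had an unadjusted p under 0.05 (0 of 10; 2.54% of all genes), none passed after adjustment (0.0101% of all genes), and 0 of 10 had libraries without overlap (5.85% of all genes). The 95% intervals of VCS against CSA on the log2 scale were -0.37 to 0.29 for VEGFA, -0.49 to 0.07 for VEGFB and -0.28 to 0.11 for VEGFC. They were -0.25 to 0.20 for NRP1, -0.41 to 0.23 for NRP2 and -0.24 to 0.40 for SEMA3A, and were wider for ANGPTL4, ANGPT1, ANGPT2 and FLT1. Differences inside these bounds could not be resolved with 3 libraries per group.

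**Figure D3:**
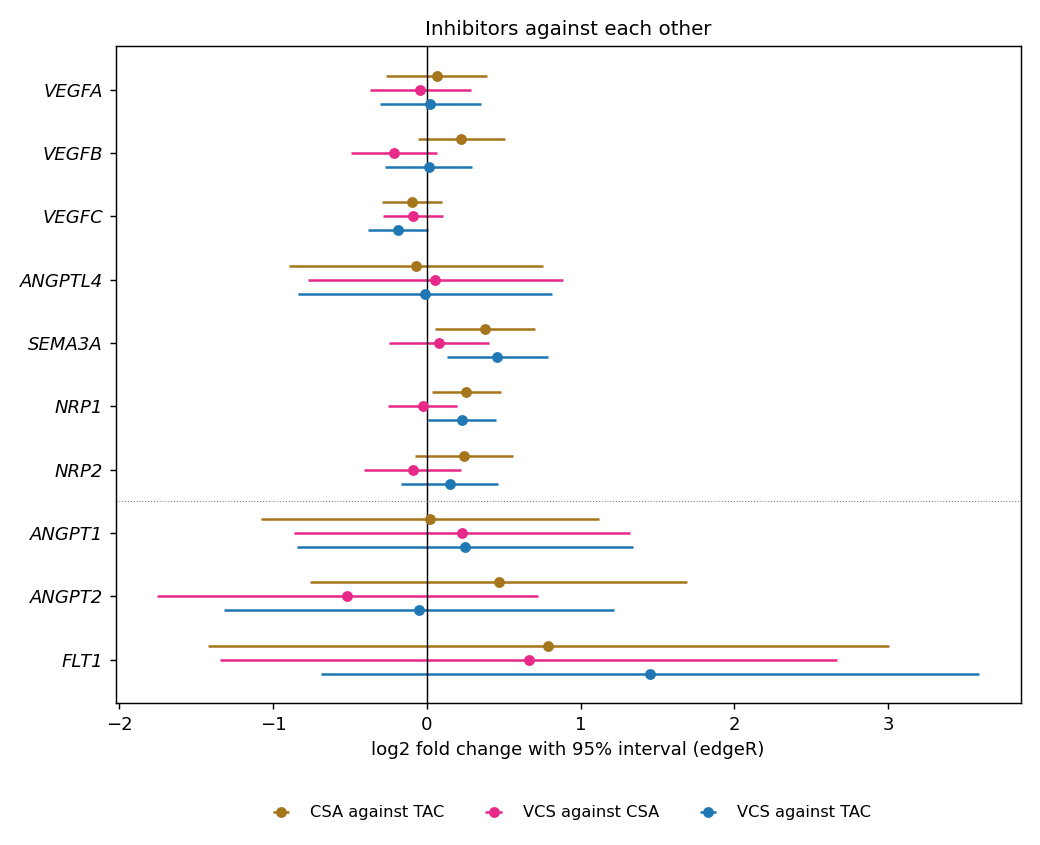
Log2 fold change between inhibitors (horizontal axis) for the 10 genes (vertical axis), with approximate 95% intervals derived from the edgeR test. The 4 intervals wholly above 0 are those of SEMA3A and NRP1 for CSA against TAC and VCS against TAC, and none passed after adjustment over all genes.

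ANGPTL4 (ENSG00000167772, chromosome 19, 8363289 to 8374373) separated the libraries by replicate number and not by treatment. It encodes a secreted inhibitor of lipoprotein lipase. It was at 21.6, 9.10 and 13.5 CPM in DMSO 1, 2 and 3, at 21.0, 9.71 and 13.4 in CSA, at 22.2, 10.8 and 13.4 in TAC, and at 22.9, 10.0 and 13.0 in VCS. Within a number the 4 libraries were close together (20.99 to 22.9, 9.10 to 10.8 and 13.0 to 13.5 CPM), and the numbers did not overlap. The mean of the libraries numbered 1 was 2.21 times that of those numbered 2 and 1.64 times that of those numbered 3.

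Replicate number held 98.5% of the variance of ANGPTL4 in log2 CPM over the 12 libraries, and group held 0.530%. This share was the highest of all 19784 tested genes, whose median was 34.0%; 9 genes exceeded 95%. Only 3 tested genes (0.0152%) had all libraries numbered 1 above all numbered 3 and these above all numbered 2. Named after their values were seen, the other two were MCTP2 and NCOR1.

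Because the numbers differ so much, the fit with group alone gave ANGPTL4 a wide error (SE 0.38) around log2 fold changes against DMSO of -0.0032 for CSA, 0.07 for TAC and 0.05 for VCS. Set against the DMSO library of the same number, the log2 ratios were -0.04, 0.09 and -0.01 in CSA, 0.04, 0.24 and -0.02 in TAC, and 0.08, 0.14 and -0.06 in VCS. Other genes went with the number in part. NDRG1, a HIF target named after its values were seen, was at 43.9 to 48.6 CPM in the libraries numbered 1 and at 24.1 to 33.2 in all others. Of 10 HIF target genes it was the single one whose libraries numbered 1 lay above all others, and none of 8 tested PPAR targets did, where 241 of all tested genes (1.22%) did. SLC2A1, the glucose transporter, was at 237 to 256 CPM in number 1, with CSA 3 (247) among them. VWF, an endothelial marker, was also higher in number 1 (2.38 to 3.07 CPM) than in the others (0.927 to 2.23). Some genes, named after their values were seen, were highest in number 3 instead. ADM, also a HIF target, had means of 47.7, 43.3 and 59.5 CPM in numbers 1, 2 and 3. EFNA1 and ANGPTL7 came next after ANGPTL4 among the genes of the lists in the share held by number (92.58 and 86.97%). Both had their highest mean in number 3. What the number stands for was not tested.

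VEGFA, also a HIF target, showed another order. Its libraries numbered 2 (156 to 193 CPM) all lay below every other library (197 to 239), a pattern of 244 tested genes (1.23%). Number held 64.0% of its variance and group 11.7%. For the other 8 genes the share of number ran from 7.49% (NRP1) to 36.9% (ANGPT2). The exons of VEGFA, ANGPTL4, NRP1 and NRP2 each overlap an annotated antisense gene, and reads of the pair cannot be told apart where strand was not used.

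**Figure D4:**
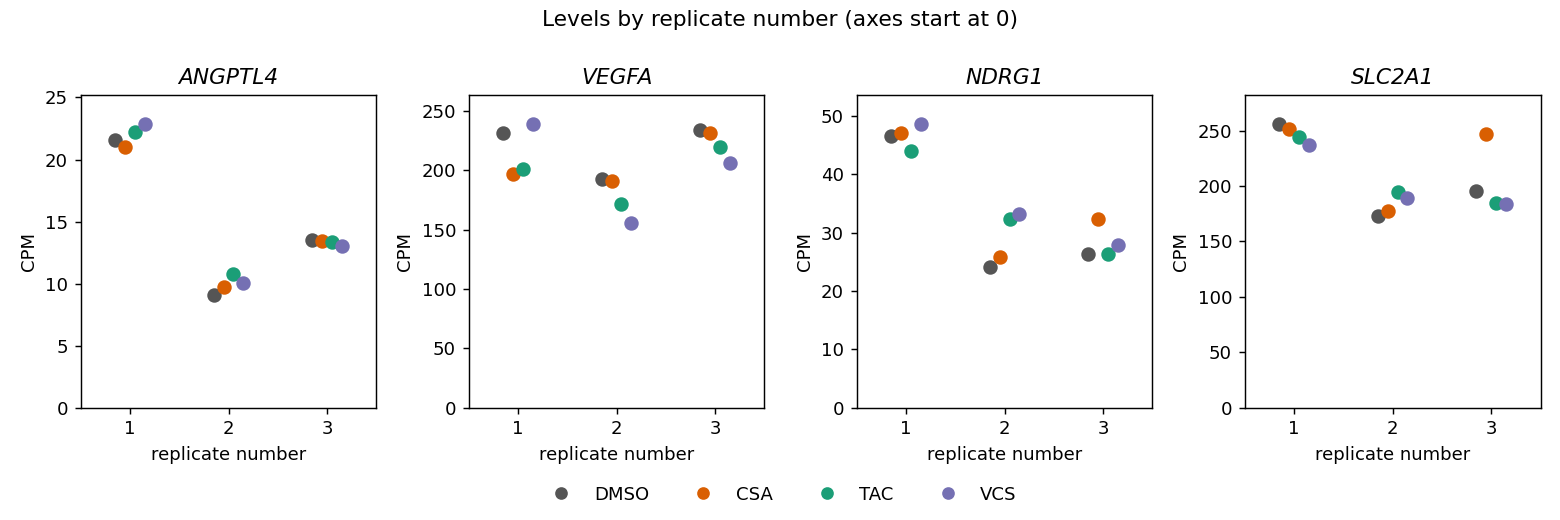
CPM (vertical axes, starting at 0) of ANGPTL4, VEGFA, NDRG1 and SLC2A1 by replicate number (horizontal axes), with 1 point per library coloured by group. ANGPTL4 forms 3 tight sets at 20.99 to 22.9, 9.10 to 10.8 and 13.0 to 13.5 CPM, while VEGFA is lowest in the libraries numbered 2.

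FLT1 (ENSG00000102755, chromosome 13, 28300344 to 28495145), the VEGF receptor and decoy, had the largest fitted differences from DMSO of the 10 genes in CSA and TAC, though not in VCS, and counts of at most 26 per library. It had 25, 22 and 26 counts in DMSO, 17, 16 and 0 in CSA, 18, 1 and 0 in TAC, and 18, 17 and 14 in VCS. All inhibitor libraries lay below all DMSO libraries, and the share of all tested genes that do so jointly is not given here. In VCS the counts were close together, whereas CSA and TAC held libraries at 0, which allow up to 0.0832 CPM in CSA 3 and 0.0934 CPM in TAC 3 (3 counts, counting error only). CSA differed from DMSO by -1.19 on the log2 scale (SE 0.91), TAC by -1.98 (SE 0.97) and VCS by -0.52 (SE 0.87), with edgeR adjusted p of 0.939, 0.920 and 0.963. The CSA value was -0.59 without CSA 3, and the TAC value was -5.34 without TAC 1 and -1.41 without TAC 3. Gene-level counts do not separate the membrane and soluble forms.

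Some markers of endothelium and fibroblasts were low in CSA 3, TAC 2 and TAC 3, the libraries with at most 1 FLT1 count. Of 12 tested endothelial markers 5 were lower in these 3 libraries than in all of the other 9 (PECAM1, VWF, PLVAP, ESAM and CDH5). The same held for 3 of 7 smooth muscle and fibroblast markers (DCN, COL3A1 and PDGFRA) and for 0.516% of all tested genes. Some of these gaps were narrow. In counts not scaled to library size, CDH5 had 7 in both CSA 3 and VCS 3. In the same libraries PLVAP had 10 and 11, and PDGFRA 7 and 8. VWF had 47 counts in TAC 2 and 43 in DMSO 3. PECAM1, an endothelial junction protein, was at 0.0290 CPM in CSA 3, 0.0890 in TAC 2 and 0.184 in TAC 3, against 0.924 to 4.17 in the other 9. DCN, a fibroblast proteoglycan, was at 1.01, 0.623 and 0.553 CPM in these 3 libraries, against 1.94 to 4.23 elsewhere. COL3A1, a fibrillar collagen, was at 6.14, 4.78 and 3.96 CPM, against 9.67 to 14.4. PLVAP, of fenestral diaphragms, was at 0.290, 0.148 and 0.123 CPM, against 0.393 to 1.24. The fibroblast list did not move as a whole. COL1A1 and LUM, which encode a fibrillar collagen and a proteoglycan, were at their highest of the 12 libraries in CSA 3 (5455 and 117 CPM), and the summed level of the 7 markers was also highest there (5883 CPM, against 3683 to 4531 in the other 11).

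The other 7 endothelial markers did not separate these libraries. KDR, the main signalling receptor of VEGF-A, was at 0.348, 0.386 and 0.430 CPM in them and at 0.393 to 0.992 in the others, and TEK, the angiopoietin receptor, at 0.695, 0.861 and 0.307 against 0.303 to 0.816. The summed level of 14 endothelial markers was 13.8 to 21.6 CPM in DMSO, 12.5 to 16.8 in CSA, 8.94 to 16.7 in TAC and 14.8 to 20.5 in VCS. Of these 14 markers 12 were tested; EMCN and MMRN1 were too low, and each was at 0 in some libraries. Against DMSO 10 of 12 were below 0 for CSA, 11 for TAC and 4 for VCS, with 0 passing. Over all tested genes 49.0, 49.0 and 50.9% were above 0 for CSA, TAC and VCS. As 5 of the 12 markers were low together in CSA 3, TAC 2 and TAC 3, these counts are not independent. The part of these markers in the FLT1 values was not tested.

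**Figure D5:**
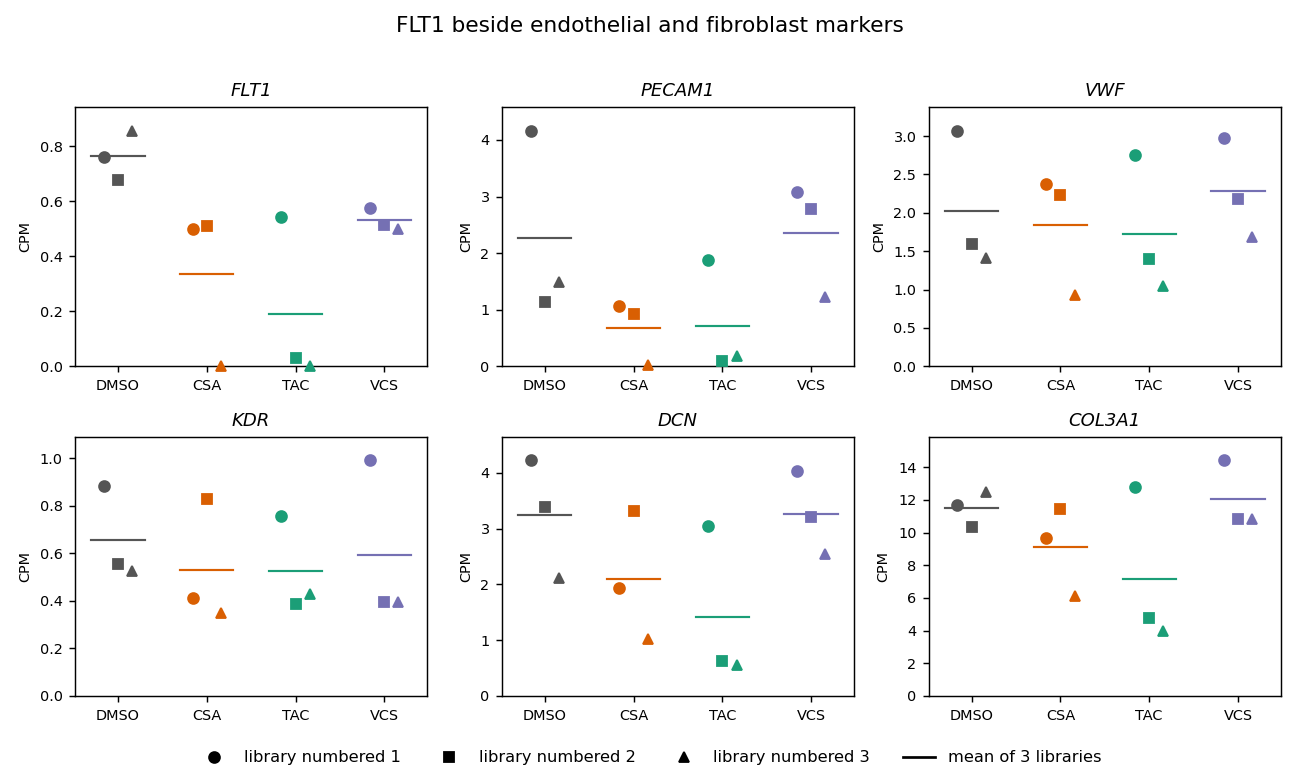
CPM (vertical axes, starting at 0) of FLT1, the endothelial markers PECAM1, VWF and KDR, and the fibroblast markers DCN and COL3A1 by group; symbols are library numbers and lines are means of 3. CSA 3, TAC 2 and TAC 3 are low for FLT1, PECAM1, DCN and COL3A1 together.

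The surrounding pathway was described by 11 lists with 107 tested genes beyond these 10. None of the 107 passed in any comparison with group as the only term, and unadjusted p-values under 0.05 numbered 10 for CSA against DMSO, 4 for TAC and 1 for VCS (9.35, 3.74 and 0.935%, against 3.75, 4.65 and 3.27% of all genes). In CSA against TAC there were 18 (16.8%, against 7.52% of all genes).

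Among VEGF ligands and receptors, PGF, a further FLT1 ligand, was at 9.55 ± 0.691 CPM in DMSO and at 9.83 ± 1.35, 10.4 ± 1.52 and 9.67 ± 0.905 in CSA, TAC and VCS (n = 3 each). FLT4, the VEGF-C receptor, stayed between 0.322 and 0.960 CPM in the 12 libraries. Of 8 tested angiopoietin receptors and angiopoietin-like genes, 6 had a log2 fold change above 0 for CSA against DMSO, 4 for TAC and 7 for VCS.

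Semaphorin genes were described in the same way, and none passed. All 6 other class 3 semaphorins had a log2 fold change above 0 in CSA (median 0.18), as did 4 in TAC (0.06) and 5 in VCS (0.07), where 49.0, 49.0 and 50.9% of all tested genes were above 0. SEMA3E, the ligand of PLXND1, was at 20.5 ± 2.11 CPM in DMSO and 26.2 ± 8.80 in CSA, with CSA 3 alone at 36.2. CSA 3 was also the highest library for SEMA3B, SEMA3F and SEMA3G, but not for SEMA3C or SEMA3D. SEMA3D was at 1.54 ± 0.261 CPM in DMSO and 2.21 ± 0.163 in VCS (log2 0.52, SE 0.23, edgeR adjusted p = 0.963).

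Of 11 tested membrane semaphorins, 9 were above 0 in CSA against DMSO and 10 in CSA against TAC (median 0.33), while 3 were above 0 in TAC against DMSO (median -0.02) and 5 in VCS against DMSO (median -0.01). SEMA4G was at 3.80, 3.29 and 3.96 CPM in DMSO, 4.73, 4.94 and 5.85 in CSA, 3.60, 3.92 and 3.41 in TAC and 3.84, 3.61 and 4.61 in VCS. CSA lay above the other groups without overlap (log2 0.49 against DMSO, SE 0.16, edgeR adjusted p = 0.939), for which no share of all tested genes is given here. SEMA4B was at 56.0 ± 5.25 CPM in DMSO, 61.7 ± 10.6 in CSA and 46.0 ± 3.77 in TAC (CSA against TAC log2 0.42, SE 0.12, edgeR adjusted p = 0.494). Of 9 plexins, the semaphorin receptors, 6 were above 0 in CSA and 4 in TAC. CSA 3 was the highest library for all plexins but PLXNA4 and PLXNC1. PLXNA2, a partner of neuropilins, was at 19.5 ± 2.45 CPM in DMSO and 24.4 ± 3.82 in CSA (log2 0.33, SE 0.14, edgeR adjusted p = 0.939).

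BNIP3, a HIF target of mitophagy, was at 149 ± 6.16 CPM in DMSO, 122 ± 14.7 in CSA and 159 ± 12.8 in TAC (CSA against TAC log2 -0.38, SE 0.11, edgeR adjusted p = 0.494 with group alone). FGF2, an endothelial mitogen, was at 115 ± 16.9, 111 ± 15.9 and 148 ± 19.8 CPM in the same groups (log2 -0.41, SE 0.17, edgeR adjusted p = 0.625). EPAS1, which encodes HIF-2 alpha, was at 209.9 ± 39.1 CPM in DMSO and 247 ± 2.28, 229 ± 26.3 and 255 ± 58.4 in the inhibitor groups. AGRN, a heparan sulfate proteoglycan that binds growth factors, was at 1796 ± 266 CPM in CSA and 1311 ± 146 in TAC, with CSA 3 the highest library at 2103 (CSA against TAC log2 0.45, SE 0.13, edgeR adjusted p = 0.494). In counts not scaled to library size, AGRN had 52783, 43486 and 42702 in DMSO and 50106, 52287 and 37847 in VCS. The same counts were 55411, 52015 and 72585 in CSA and 46926, 46196 and 37258 in TAC.

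Genes with the pattern most like VEGFA over the 12 libraries, among 10561 with a mean log2 CPM of at least 3, were AUTS2 (Pearson r of log2 CPM 0.956), CASTOR3P (0.951), GCC2 (0.924), CASTOR2 (0.920) and FAM118A (0.908). Those most like SEMA3A were BTN2A2 (0.929), DCDC2 (0.925), CGNL1 (0.859) and CAMK2D (0.858). For ANGPTL4, added after its values were seen, NCOR1 came first (0.957). These are the highest of many correlations, and their 12 libraries share depth and replicate number.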

How the data were processed

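Poly(A) RNA of 12 libraries (4 groups of 3) was sequenced. The submitters' processing notes name Salmon and GRCh38; versions, the annotation release, the use of strand and whether the in-line UMIs were collapsed are not given in the sources used here. The authors deposited whole numbers per gene. These were read here as the expected counts of Salmon, rounded by the authors and not normalized. Library totals differ (28808213 to 36077072), which alone does not show that no scaling was applied.

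Genes were kept by filterByExpr (minimum count 10; 19784 genes), scaled by TMM and fitted with edgeR 4.0.16 (R 4.3.3) quasi-likelihood on the 12 libraries jointly (term: group; 8 residual degrees of freedom). Adjusted p is Benjamini-Hochberg over all tested genes, two-sided, threshold 0.05. The script was tested on simulated data. Alternatives included DESeq2 1.42.0, RLE factors, other filters, a replicate block and each library left out. Positions and lengths are from GENCODE 29.

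The members and lists were chosen with earlier results of these data known. Named genes were the 10 members, from each of 18 lists those that passed or the 3 with the smallest p in the test of any difference, 5 endothelial markers, and the 5 genes most like VEGFA and SEMA3A (1 is not reported here); exceptions are marked, as are SLC2A1, EMCN, MMRN1, PLVAP, ESAM, PDGFRA and LUM, named after their values were seen. With group means removed, libraries with the same number correlated at 0.00694 to 0.532 in 18 pairs, of which 14 exceeded 0.1. Pairs from different groups with different numbers correlated at -0.427 to 0.263. Because not all 18 pairs exceeded 0.1, the numbers were not taken to pair the libraries. The fit reported therefore leaves the number out, which widens the error of genes that follow it.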

Additional observations from a re-analysis of the deposited data

How the results depend on the processing

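No member passed in any of the 158 alternative counts, and the smallest edgeR or DESeq2 adjusted p of a member in any alternative was 0.131 (SEMA3A, CSA against TAC, replicate block). Of 70 member values over 1369 alternative fits, 95 changed sign, in 34 values; none was past the threshold. The cause was not tested. Depth limits ANGPT1 and ANGPT2, with at most 39 counts in a library, so changes of their size could not be resolved. FLT1 also had few counts and did not pass, but its libraries differed by more than counting error. Single libraries of CSA and of TAC held as few as 0 and as many as 17 or 18 FLT1 counts. The 95% Poisson interval of its summed DMSO counts began at 57.2. That lay above the upper ends for TAC (29.7) and CSA (46.3), while the VCS interval reached 64.8 and overlapped.

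The number of all genes called moved widely. For CSA, TAC and VCS against DMSO, CSA against TAC, VCS against CSA, VCS against TAC, the mean against DMSO and any difference, in that order, it was 2, 7, 1, 6, 2, 5, 2 and 10 in the fit reported. It was 86, 131, 69, 87, 70, 101, 89 and 285 with no filter on low counts, and 9, 38, 7, 44, 12, 40, 9 and 73 with DESeq2. Without the 4 libraries numbered 3 it was 0, 3, 1, 1, 6, 9, 0 and 7. A minimum count of 50 gave 1, 6, 0, 6, 2, 8, 2 and 10, and robust estimation 2, 7, 0, 5, 1, 8, 1 and 10. With only the groups compared the first 6 were 2, 1, 0, 1, 3 and 0. With each library left out they ran from 0 to 2, 0 to 10, 0 to 8, 0 to 6, 0 to 7, 0 to 12, 0 to 4 and 1 to 23.

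With the replicate block the same counts were 6, 41, 0, 65, 6, 41, 3 and 34, and 11 of 12 libraries correlated best with a library of their own number, a hint from the data and not the design. BNIP3 (log2 -0.38, edgeR adjusted p = 0.0446) and FGF2 (-0.41, adjusted p = 0.0441) then passed in CSA against TAC, and no other of the 107 pathway genes did. Of the 10 members 4 then had an unadjusted p under 0.05 and an interval that excludes 0 in TAC against DMSO (VEGFB, FLT1, NRP1 and SEMA3A; 13.1% of all genes), 2 in CSA against TAC (NRP1 and SEMA3A; 15.9%) and 3 in VCS against TAC (VEGFC, NRP1 and SEMA3A; 7.88%), none after adjustment. The block gave ANGPTL4 in CSA 0.0089 in place of -0.0032, with an SE of 0.077.

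Without the 4 libraries numbered 3, signs turned in CSA against DMSO for VEGFB (0.11), ANGPT1 (-0.25), ANGPTL4 (0.0049) and NRP1 (-0.088), in TAC against DMSO for ANGPT2 (0.053), in CSA against TAC for ANGPT1 (-0.34) and NRP2 (-0.011), in VCS against CSA for VEGFA (0.023), NRP1 (0.091) and NRP2 (0.15), and in the mean against DMSO for VEGFC (-0.082), ANGPT2 (0.23) and SEMA3A (0.033). The mean for VEGFC, 0.00023 as reported, was also -0.0017 with RLE factors, -0.00042 with no filter, -0.0079 with a minimum count of 50 and -0.0019 with DESeq2.

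With each library left out, 61 of the 70 member values moved by over 1.5 times or turned. Signs turned within these log2 ranges. In CSA against DMSO they were -0.11 to 0.055 for VEGFB, -0.073 to 0.060 for VEGFC, -0.091 to 0.71 for ANGPT1, -0.17 to 0.69 for ANGPT2, -0.35 to 0.38 for ANGPTL4, -0.055 to 0.11 for NRP1 and -0.026 to 0.22 for SEMA3A. In TAC against DMSO they were -0.11 to 0.69 for ANGPT1, -0.75 to 0.22 for ANGPT2, -0.29 to 0.45 for ANGPTL4 and -0.065 to 0.12 for NRP2. In VCS against DMSO they were -0.28 to 0.019 for VEGFA, -0.82 to 0.17 for ANGPT2, -0.36 to 0.43 for ANGPTL4 and -0.013 to 0.071 for NRP1. In CSA against TAC they were -0.025 to 0.15 for VEGFA, -0.19 to 0.28 for ANGPT1 and -0.42 to 0.29 for ANGPTL4. In VCS against CSA they were -0.18 to 0.11 for VEGFA, -0.35 to 0.40 for ANGPTL4, -0.098 to 0.074 for NRP1, -0.20 to 0.087 for NRP2 and -0.057 to 0.19 for SEMA3A. In VCS against TAC they were -0.12 to 0.17 for VEGFA, -0.084 to 0.11 for VEGFB, -0.49 to 0.36 for ANGPT2 and -0.42 to 0.34 for ANGPTL4. For the mean against DMSO they were -0.069 to 0.063 for VEGFC, -0.021 to 0.78 for ANGPT1, -0.50 to 0.36 for ANGPT2, -0.21 to 0.42 for ANGPTL4, -0.082 to 0.0065 for NRP1 and -0.082 to 0.033 for SEMA3A.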
